A study of Mus musculus with 10 samples.

Results

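The 7 claudin genes Cldn1, Cldn2, Cldn3, Cldn5, Cldn9, Cldn12 and Cldn14 were followed across the liver arrays of 10 mice. They were chosen by their symbols from the deposited series table, with the measured difference of Cldn9 between the groups, among the larger ones of these arrays, already known. All 7 had a row in the deposited series table of 21193 rows, and on the scanner arrays they were measured by 8 probes, 1 for each gene and a second for Cldn1. They are 7 of the 32636 gene and transcript names on the arrays. All 8 probes were well above background on 10 of 10 arrays, so no member was lost to the filter on dim probes.

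The mice were males of the inbred strain C57BL/6NCrSlc, and every mouse, controls included, was on a high-cholesterol diet. In the mulberry group, 5 mice took mulberry leaf extract in their drinking water for 4 weeks, and in the control group 5 mice did not. The ages of the mice are not given in the labels. A part of each liver was hybridised to its own one-colour Agilent array. The p-values for group differences below rest on the spread between these arrays, where effects of mouse, array and slide are mixed. The permutation p-values below are for correlations between genes. All mice shared the diet, so the values say nothing of its effect.

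Claudins are small proteins that cross the membrane several times and line up into the strands of the tight junction and set which ions and solutes pass between neighbouring cells. In the liver, tight junctions between hepatocytes close off the bile canaliculus from the blood side, and others seal the bile ducts and the vessel lining. Some claudins tighten the junction and others form channels through it, so the mix of family members decides how leaky a barrier is.

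Promoter sequences are shown for Cldn12, Cldn1, Cldn3 and Cldn5. Cldn1 and Cldn3 each correlated with Cldn12 over the arrays in the values below, but passed in only 8 of 20 and 3 of 20 alternatives. For Cldn5 no such relation with Cldn12 was found. Each sequence is the 250 bases before the transcription start in the RefSeq table of build GRCm38.p6, which held 6 of the 7 members. They lie at chr16:26371840-26372089 on the minus strand for Cldn1, chr5:134985964-134986213 on the plus strand for Cldn3, chr5:5514977-5515226 on the minus strand for Cldn12 and chr16:18776597-18776846 on the plus strand for Cldn5. Cldn12 had 3 listed starts, of which the most upstream is shown. Capitals mark every match, none overlapping another, on either strand to 5 motifs, namely the TATA box as TATAAA, the CCAAT box as CCAAT, the GC box core as GGGCGG, the Snail-type E-box as CACCTG and part of the site of the liver factor HNF1 as GTTAAT.
Cldn1: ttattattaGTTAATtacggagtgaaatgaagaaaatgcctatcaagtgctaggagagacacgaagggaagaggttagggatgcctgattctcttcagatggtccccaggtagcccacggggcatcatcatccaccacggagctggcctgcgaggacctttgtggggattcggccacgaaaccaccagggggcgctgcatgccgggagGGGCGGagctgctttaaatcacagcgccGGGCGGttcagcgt
Cldn3: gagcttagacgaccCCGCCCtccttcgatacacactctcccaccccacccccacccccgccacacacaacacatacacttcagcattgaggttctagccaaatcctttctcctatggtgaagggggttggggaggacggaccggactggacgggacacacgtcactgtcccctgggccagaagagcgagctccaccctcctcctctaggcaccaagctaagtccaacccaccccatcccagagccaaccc
Cldn12: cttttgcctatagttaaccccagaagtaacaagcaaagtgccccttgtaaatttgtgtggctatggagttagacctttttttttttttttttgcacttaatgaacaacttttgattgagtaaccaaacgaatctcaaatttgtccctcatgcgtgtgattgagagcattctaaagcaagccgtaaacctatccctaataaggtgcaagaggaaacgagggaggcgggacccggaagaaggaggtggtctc
Cldn5: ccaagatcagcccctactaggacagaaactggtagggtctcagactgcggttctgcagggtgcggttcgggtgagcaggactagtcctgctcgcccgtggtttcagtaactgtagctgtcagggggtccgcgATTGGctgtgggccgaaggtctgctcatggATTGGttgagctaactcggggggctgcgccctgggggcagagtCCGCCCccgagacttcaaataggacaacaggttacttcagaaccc

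The Cldn1 window held the GC box core at bases 42 to 37 and 14 to 9 before the start and GTTAAT at bases 241 to 236. The GC box core was found in 32.7% and GTTAAT in 6.43% of the 32851 windows of this length in the table. The Cldn3 window held the GC box core on the opposite strand at bases 236 to 231. The Cldn5 window held CCAAT on the opposite strand at bases 118 to 114 and 88 to 84, a motif found in 33.8% of windows, and the GC box core on that strand at bases 45 to 40. The Cldn12 window held none of the 5 motifs. TATAAA, found in 12.4% of windows, occurred in Cldn2 only among the 6 members, at bases 35 to 30, and the E-box, found in 17.2% of windows, occurred in none of the 6. No motif was common to Cldn1, Cldn3 and Cldn12. Their GC content was 55.6%, 60.8% and 42%, against a median of 52.4% over all windows. These matches describe letters in a window and not binding.

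Levels are log2 values of the background-corrected intensity, from which the array's own 75th percentile was subtracted, so that 0 marks that percentile. They compare arrays for 1 probe, and not different probes. The 75th percentile ranged from 152.8 to 283.3 over the 10 arrays, between 54.4% and 62.4% of the probes were well above background, and any pair of arrays correlated across genes with r of 0.940 to 0.993. Across the whole series, 0 of 17847 tested genes (0%) passed limma's test after Benjamini-Hochberg adjustment (smallest adjusted p = 0.506). Before adjustment, p was under 0.05 for 924 genes (5.18%), of which 515 were higher (2.89%) and 409 lower (2.29%) with mulberry. That count ranged from 324 to 3629 over the alternatives. It was 550 without control 3 and 573 without control 5, and 625 to 1308 without any other 1 array. All 10 tested markers of hepatocytes, albumin among them, were well above background on 10 of 10 arrays. Scanner arrays and columns of the series table were matched by their gene-centred values over 11150 genes. For mulberry, each of 5 arrays matched the column of its own number best (r of 0.940 to 0.985). For control, 0 of 5 did (r with the same number of -0.51 to -0.04), and each matched another control column (r of 0.890 to 0.971). No array matched a column of the other group best. The numbers below are those of the scanner arrays, and the series table was compared by group only.

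Cldn9 codes for a claudin best known from the inner ear, where it keeps ions from leaking past hair cells and where its loss deafens mice. Its level was -2.50, -2.24, -2.78, -2.34 and -2.56 in mulberry 1 to 5, against -3.29, -3.25, -3.19, -3.25 and -3.24 in control 1 to 5. All 5 mulberry arrays lay above all 5 control arrays, and mulberry 2 was the highest and mulberry 3 the lowest of the mulberry group. The group means were -2.48 ± 0.21 for mulberry and -3.24 ± 0.04 for control (SD, n = 5 each), a difference of 0.76 ± 0.13 (SE) or 1.69-fold. Of all genes tested, 0.409% had every mulberry array above every control array and 0.319% had every mulberry array below. Since Cldn9 was picked for this difference, the values are a description and carry no p.

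The Cldn9 spot was dim, though well above background on 10 of 10 arrays. Its processed intensity, taken after background correction, was of the order of the local background in control and up to 49.9 in mulberry. Before scaling between arrays it was 49.9, 34.3, 22.2, 49.6 and 37.7 in mulberry 1 to 5, against 18.2, 24.4, 19.8, 17.5 and 20.9 in control 1 to 5. On this unscaled intensity mulberry 3 lay below control 2, so the groups overlapped by that array. The local background was 17 to 23 at this spot on mulberry arrays and 16 to 22 on control arrays. The scanner software's own error of the spot was 10.3% to 11.8% of its value for mulberry and 11% to 12% for control. The control levels spread by 2.52% (SD), less than that error, and the mulberry levels by 15.7%. The narrow control spread belongs to this scaling, as the SD of the log2 levels in mulberry and control was 0.21 and 0.04 here, 0.14 and 0.10 under median scaling, and 0.16 and 0.08 in the series table. Cldn9 is measured by a single probe, so no second probe bears on it.

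The size of the Cldn9 difference changed with the processing. After normexp correction of the median spot signal, with an offset of 50 added to every spot, it was 0.19 ± 0.10. Its levels were then -1.62, -1.17, -1.43, -1.39 and -1.50 in mulberry 1 to 5, against -1.55, -1.74, -1.51, -1.59 and -1.69 in control 1 to 5. With it, 4 of 5 mulberry arrays lay above all controls and mulberry 1 lay within the control range. The offset is larger than every processed Cldn9 intensity and by construction shrinks differences of dim probes. Spot signal, correction and offset changed together here, and their separate parts in the smaller difference were not tested. In the deposited series table the difference was 0.65 (1.57-fold), again with 5 of 5 mulberry columns above all control columns. It was 0.56 ± 0.18 within scan day 1 (2 mulberry and 3 control arrays) and 0.91 ± 0.22 within scan day 2 (3 mulberry and 2 control arrays). On slide 3, the only slide with both groups, mulberry 1 exceeded control 1 and 4 by 0.76 ± 0.29. Slide 1 held control 2, 3 and 5 only, slide 2 mulberry 3 and 5 only, and slide 4 mulberry 2 and 4 only. Across these slides, slide and group cannot be told apart. Over all 29 alternatives the Cldn9 difference ranged from 0.19 to 0.91 and its sign was never negative. The groups did not overlap on the levels as reported, so fits of those levels on fewer arrays had to be positive. Cldn9 was also picked for this difference, so the kept sign is a description and no test.

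**Figure D1:**
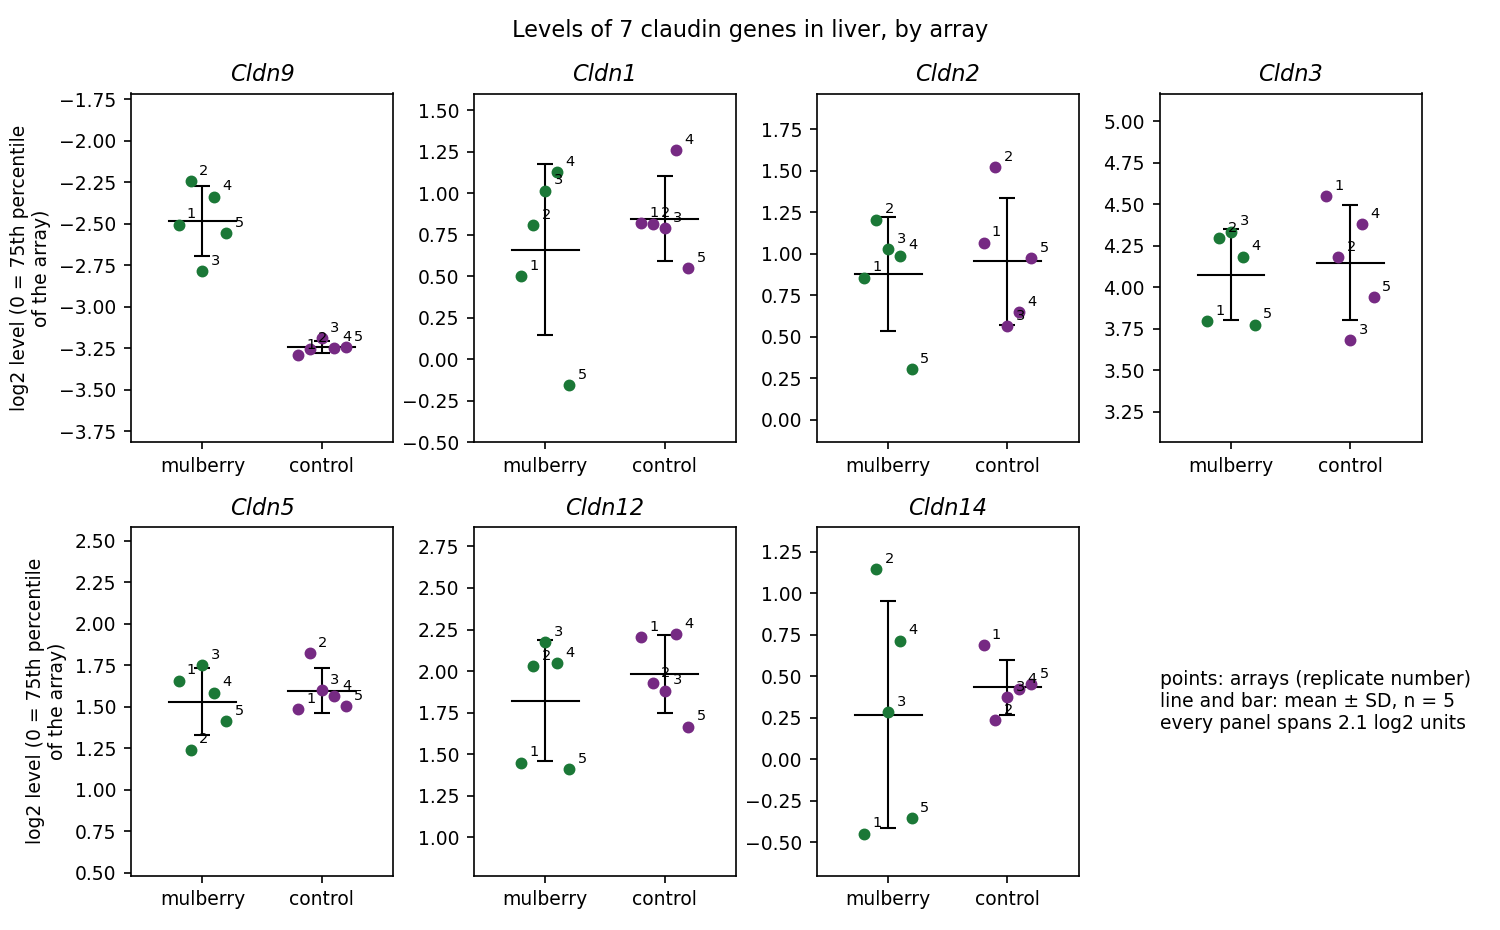
Log2 level of each claudin gene (vertical axis, 0 is the 75th percentile of the array) in mulberry (green, left) and control (purple, right) livers. Points are arrays with their replicate number, lines and bars are means ± SD (n = 5 each), and all panels span the same height. For Cldn9 the 5 mulberry arrays lie above the 5 control arrays, and for the other 6 genes the groups overlap.

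The remaining 6 members had overlapping groups, and on the brighter probe of each gene the difference was smaller than its SE. All 6 were lower with mulberry, by 0.07 to 0.19, where 53% of all tested genes were lower and 47% higher, and where the median of all genes was -0.02. Over the 7 members, 1 was higher and 6 were lower, with a median of -0.08. The signs of these 6 were not stable, as each changed under at least 3 of the 29 alternatives. Without mulberry 1 and 5, 6 of the 7 members were higher with mulberry and the median was 0.12. In that fit 10880 of all 17847 tested genes were higher, and the median of all genes was 0.06.

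Among barrier-forming claudins, Cldn1 is the sealing claudin of many epithelia and is present in hepatocytes. Its level was 0.50, 0.80, 1.02, 1.13 and -0.16 in mulberry 1 to 5, against 0.82, 0.82, 0.79, 1.26 and 0.55 in control 1 to 5. Mulberry 5 was the lowest of all arrays and control 4 the highest, and the difference was -0.19 ± 0.24. The second Cldn1 probe read -0.29, -0.05, -0.01, 0.23 and -0.74 in mulberry 1 to 5, against 0.35, 0.20, 0.21, 0.44 and -0.23 in control 1 to 5. It too was lowest in mulberry 5 and highest in control 4, with a difference of -0.36 ± 0.20. Without mulberry 5 the first probe gave 0.02 ± 0.19, so 1 array set the sign there.

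Cldn3 is a sealing claudin of hepatocytes and bile duct cells. Its level was 3.80, 4.29, 4.34, 4.19 and 3.78 in mulberry 1 to 5, against 4.55, 4.18, 3.68, 4.38 and 3.94 in control 1 to 5. The lowest array was control 3 and the highest control 1, so control spanned the whole mulberry range. The difference was -0.07 ± 0.19, and it was 0.005 under quantile normalization and in the series table.

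Cldn5 is the claudin of the vessel lining and the main seal of the blood-brain barrier. Its level was 1.66, 1.24, 1.75, 1.59 and 1.42 in mulberry 1 to 5, against 1.49, 1.82, 1.60, 1.56 and 1.50 in control 1 to 5. Mulberry 2 was the lowest array and control 2 the highest, with a difference of -0.07 ± 0.14. The 13 endothelial markers split into 6 higher and 7 lower, with a median difference of -0.01. Their mean per array, relative to the control mean, was 0.25, -0.16, -0.29, 0.06 and 0.13 in mulberry 1 to 5, against -0.12 to 0.12 in control. In bulk liver tissue, fewer cells of a type and less RNA per cell cannot be told apart.

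Cldn2 forms channels for small cations and water and in rodent liver lies in the junctions of hepatocytes. Its level was 0.86, 1.21, 1.03, 0.99 and 0.31 in mulberry 1 to 5, against 1.07, 1.52, 0.56, 0.65 and 0.97 in control 1 to 5. Control 2 was the highest array and mulberry 5 the lowest, and the difference was -0.08 ± 0.22. Leaving out control 2 alone turned it to 0.06 ± 0.20, and leaving out mulberry 5 alone gave 0.06 ± 0.20 as well.

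Cldn12 is an unusual claudin that lacks the tail motif by which most family members bind scaffold proteins, and it has been tied to calcium uptake in the gut. Its level was 1.45, 2.03, 2.17, 2.05 and 1.41 in mulberry 1 to 5, against 2.21, 1.93, 1.88, 2.22 and 1.67 in control 1 to 5. Mulberry 1 and 5 were the lowest of the 10 arrays, and the other 3 mulberry arrays lay inside the control range. The difference was -0.16 ± 0.19, and without mulberry 1 and 5 it was 0.10 ± 0.16.

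Cldn14 blocks cations and is known from the inner ear and from calcium handling in the kidney. Its level was -0.45, 1.15, 0.29, 0.72 and -0.35 in mulberry 1 to 5, against 0.69, 0.24, 0.37, 0.42 and 0.45 in control 1 to 5. Mulberry held both the lowest and the highest arrays, and its range was 1.59, against 0.45 in control. The SD was 0.68 in mulberry and 0.16 in control, and this difference in spread was not tested. The group difference was -0.16 ± 0.29, and without mulberry 1 and 5 it was 0.28 ± 0.20. Pooled over both groups, Cldn14 had the widest spread of the members (within-group SD of 0.50) and Cldn9 the narrowest (0.15), where the median of all tested genes was 0.32. Cldn9 was picked for its group difference and its spread changed with the scaling, so its narrow spread is only a description.

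Mulberry 1 and 5 also stood apart in markers of other cells. Macrophage markers split into 9 higher and 1 lower, lymphocyte markers into 11 higher and 0 lower, stellate cell markers into 8 higher and 1 lower and hepatocyte markers into 0 higher and 10 lower, with 0 past limma's test in each list (smallest adjusted p = 0.897). Over all tested genes, 47% were higher and 53% lower. The mean of 10 macrophage markers, relative to the control mean, was 2.12, -0.71, -0.54, 0.26 and 1.96 in mulberry 1 to 5, against -0.85 to 0.95 in control. The mean of 11 lymphocyte markers was 1.49, 0.21, 0.14, 0.24 and 1.29 in mulberry 1 to 5, against -0.29 to 0.45 in control. In the same terms, the mean of 10 hepatocyte markers was -0.99, -0.13, 0.05, -0.35 and -0.35 in mulberry 1 to 5, against -0.38 to 0.25 in control. The mean of the 7 claudin genes was -0.20, 0.25, 0.16, 0.23 and -0.41 in mulberry 1 to 5, against -0.14 to 0.12 in control, and it was lowest in mulberry 5 and 1. For Cldn9, mulberry 1 and 5 lay inside the range of the other 3 mulberry arrays, and without both the difference was 0.79 ± 0.15.

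Markers of bile duct cells, which express several claudins, showed no common direction. Of 14 listed, 9 were tested, 4 higher and 5 lower, with a median of -0.04. The widest differences on this list were Spp1 at 0.77 ± 0.48, Krt8 at -0.65 ± 0.21 and Krt18 at -0.53 ± 0.19. Cldn7 is on this list and also among the other claudins below. How far each listed gene marks duct cells alone was not tested, so the split and the list mean may reflect other cells. Krt7, Cftr, Muc1, Ggt1 and Cldn4 were not tested because too few arrays had them well above background, while Krt19 and Sox9 were detected on 10 of 10 arrays. The list mean was 0.38, -0.18, -0.25, 0.24 and -0.15 in mulberry 1 to 5, against -0.16 to 0.30 in control. The part of cell make-up in the Cldn9 difference was not tested beyond these values.

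**Figure D2:**
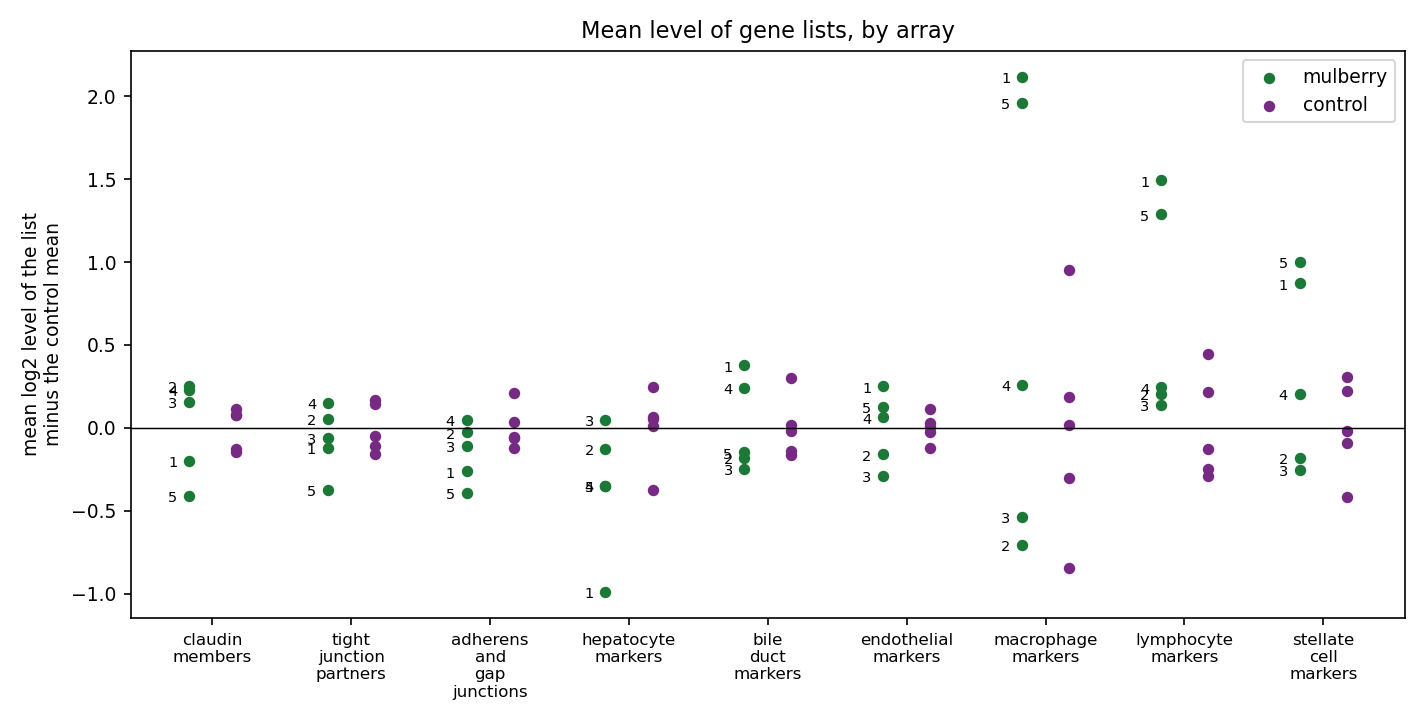
Mean log2 level of each gene list minus its control mean (vertical axis), by array, for mulberry (green, left, with replicate number) and control (purple, right) livers. Mulberry 1 and 5 are the highest arrays for macrophage, lymphocyte and stellate cell markers and the lowest mulberry arrays for the claudin members.

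The levels of the members were then set against each other over the 10 arrays, after the mean of each group was subtracted so that the difference between groups played no part. Of 21 pairs, 2 passed an exact two-sided permutation test of Pearson's r within groups (14400 permutations) after Benjamini-Hochberg adjustment over the pairs. Cldn1 went with Cldn12 (r = 0.86, permutation p = 0.0014, adjusted p = 0.029). Spearman's rank correlation was 0.93 (permutation p = 0.0015, adjusted p = 0.031), and r was 0.85 without the 2 arrays farthest from the median of Cldn1. Cldn3 went with Cldn12 (r = 0.85, permutation p = 0.0042, adjusted p = 0.044). Its Spearman rank correlation was 0.83 (permutation p = 0.0056, adjusted p = 0.059), and r was 0.93 without the 2 arrays farthest from the median of Cldn3. With scan day subtracted as well, r was 0.89 for Cldn1 and Cldn12 (exact permutation p = 0.0069) and 0.80 for Cldn3 and Cldn12 (exact permutation p = 0.10), with 144 permutations each, of which the first p is the smallest they can give.

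Mulberry 1, mulberry 5, control 3 and control 5 lay below their group mean in all 3 genes. Without mulberry 1 and 5, r was 0.74 for Cldn1 and Cldn12 (permutation adjusted p = 0.36) and 0.78 for Cldn3 and Cldn12 (permutation adjusted p = 0.40). Such correlations were common on these arrays. Cldn12 had r over 0.8 with 1613 of the other 17846 tested genes, Cldn1 with 404 and Cldn3 with 768. Ranked by r with Cldn12, Cldn1 was gene 821 and Cldn3 gene 902, and ranked by r with Cldn1, Cldn12 was gene 144. Cldn1 and Cldn3 had r = 0.63 with each other, which did not pass (permutation p = 0.038, adjusted p = 0.25). The Cldn1 and Cldn12 pair passed in 8 of 20 alternatives and the Cldn3 and Cldn12 pair in 3 of 20. Cldn5 and Cldn12 had r = 0.03 (permutation p = 0.94), and Cldn9 and Cldn12 had r = 0.004 (permutation p = 0.99).

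**Figure D3:**
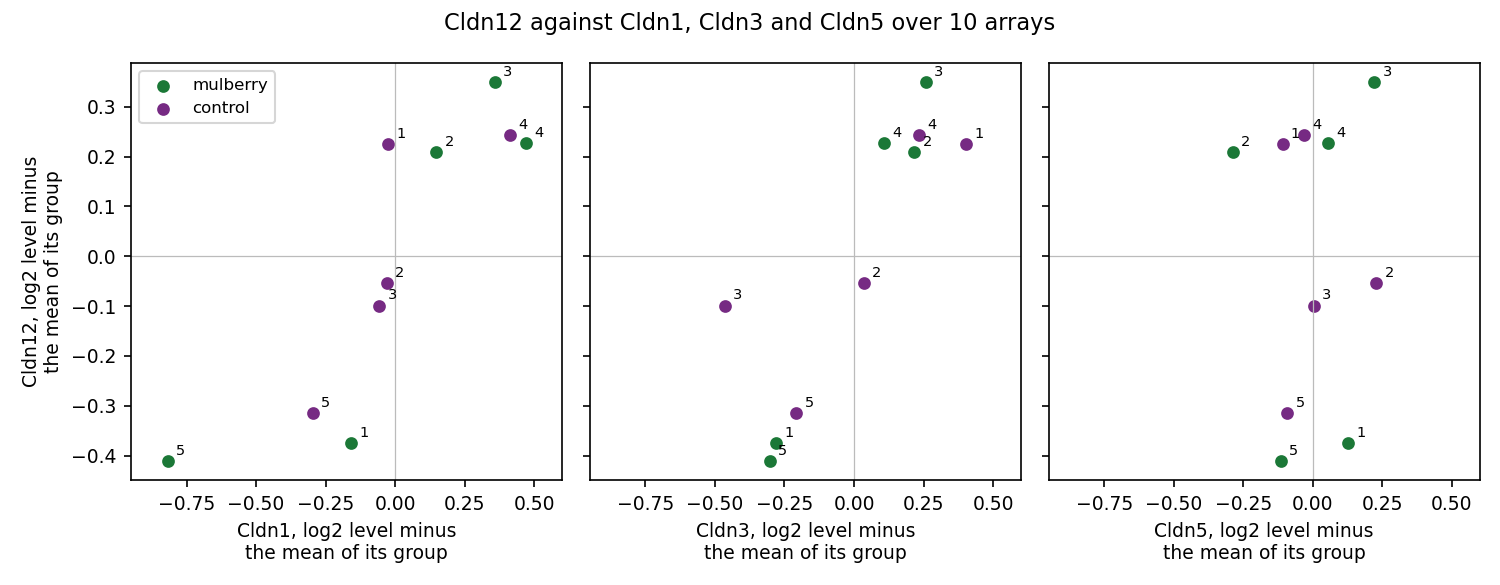
Log2 level of Cldn12 (vertical axis) against Cldn1, Cldn3 and Cldn5 (horizontal axes), each minus the mean of its group, over 5 mulberry (green) and 5 control (purple) arrays with replicate numbers. Points rise together for Cldn1 (r = 0.86) and Cldn3 (r = 0.85) and not for Cldn5 (r = 0.03).

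The genes with the pattern most like that of Cldn9 over the 10 arrays, group means subtracted, were AK020687 (r = 0.95), Scube1 (0.92), AK033284 (0.92), Snurf (0.91) and Pgm5 (0.90), and 58 genes in all had r over 0.8. Without the 2 arrays farthest from the Cldn9 median these values were 0.70, 0.84, 0.84, 0.70 and 0.54. Scube1 codes for a secreted and cell-surface protein, Snurf lies in the imprinted Snrpn locus and Pgm5 codes for a protein of cell adhesion sites. The closest genes were Fam135a, Dsg2 and AK013126 for Cldn1 (r of 0.96 to 0.97), where Dsg2 is a desmosomal cadherin. They were Pcdhb5, Cpsf2 and Srms for Cldn2 (0.88 to 0.92) and Cstf2t, AK160168 and Slc16a1 for Cldn3 (0.97 to 0.98). They were NAP115124-1, Ccdc82 and Scx for Cldn5 (0.89 to 0.90), Commd9, Polr2c and Oard1 for Cldn12 (each 0.98) and Slc22a6, Foxo4 and AK089197 for Cldn14 (each 0.99). These genes were the top of 17846 for each member, and all genes on an array share the scaling of that array.

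Elsewhere in the family, 22 other claudin and claudin-domain genes were listed, of which 17 were named on the arrays and 5 were tested. None passed limma's test (adjusted p from 0.897 to 0.957, with 1 unadjusted p under 0.05, where 5.18% of all tested genes had one). Of these 5, 3 were higher and 2 lower, and their median difference was 0.07. The epithelial claudin Cldn7 averaged -2.05 ± 0.23 in mulberry and -2.44 ± 0.21 in control (SD, n = 5 each), a difference of 0.39 ± 0.15 (limma adjusted p = 0.897). Cldn15, a channel former of the gut, differed by -0.09 ± 0.18, Cldn34c1 by 0.15 ± 0.26, Cldnd1 by 0.07 ± 0.19 and Cldnd2 by -0.17 ± 0.21. The other 12 were well above background on too few arrays for a test. In the RefSeq gene table Cldn9 neighbours Cldn6, Cldn3 neighbours Cldn4 and Cldn1 neighbours Cldn16. Of these neighbours, Cldn6 and Cldn16 were well above background on 0 of 10 arrays and Cldn4 on 1 mulberry array.

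The partners of claudins in the tight junction gave no call either. Of 31 listed, 25 were tested, 5 higher and 20 lower, with a median of -0.12, where 53% of all tested genes were lower. None passed limma's test (smallest adjusted p = 0.897), and 1 had an unadjusted p under 0.05, where 5.18% of all tested genes had one. Cgn, which codes for the junction plaque protein cingulin, averaged -2.21 ± 0.26 in mulberry and -1.82 ± 0.13 in control (difference -0.39 ± 0.15, limma adjusted p = 0.897). The membrane protein occludin (Ocln) differed by -0.14 ± 0.35 and the adhesion protein F11r by -0.02 ± 0.15. The scaffold gene Tjp1, whose product ties claudins to actin, differed by -0.17 ± 0.21. The widest differences were Arhgef2 at 0.72 ± 0.52, which codes for a regulator of the cytoskeleton held at junctions, Marveld3 at 0.50 ± 0.32 and Cxadr at -0.44 ± 0.25. Marveld3 was well above background on 4 mulberry and 3 control arrays. With 1 array left out, these differences were 0.32 to 1.04 for Arhgef2, 0.31 to 0.80 for Marveld3 and -0.61 to -0.32 for Cxadr. Arhgef2 was at -0.20 ± 0.25 without mulberry 1 and 5.

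In adherens, gap and desmosomal junctions 19 of 19 listed genes were tested, 3 higher and 16 lower, with a median of -0.16 and 0 past limma's test (1 with an unadjusted p under 0.05). The shares over all tested genes were 53% lower and 5.18% with an unadjusted p under 0.05. Cdh1, which codes for E-cadherin, averaged 1.23 ± 0.36 in mulberry and 1.85 ± 0.18 in control, a difference of -0.61 ± 0.18 (limma adjusted p = 0.897). Gjb1, the main gap junction gene of hepatocytes, differed by -0.39 ± 0.21, the desmosomal gene Dsc2 by -0.38 ± 0.20 and Nectin2 by 0.36 ± 0.18. Cdh1 was at -0.42 ± 0.16 without mulberry 1 and 5. Without these arrays 16 of the 25 tight junction partners and 8 of the 19 genes of the other junctions were higher with mulberry. In that fit 10880 of all 17847 tested genes were higher.

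**Figure D4:**
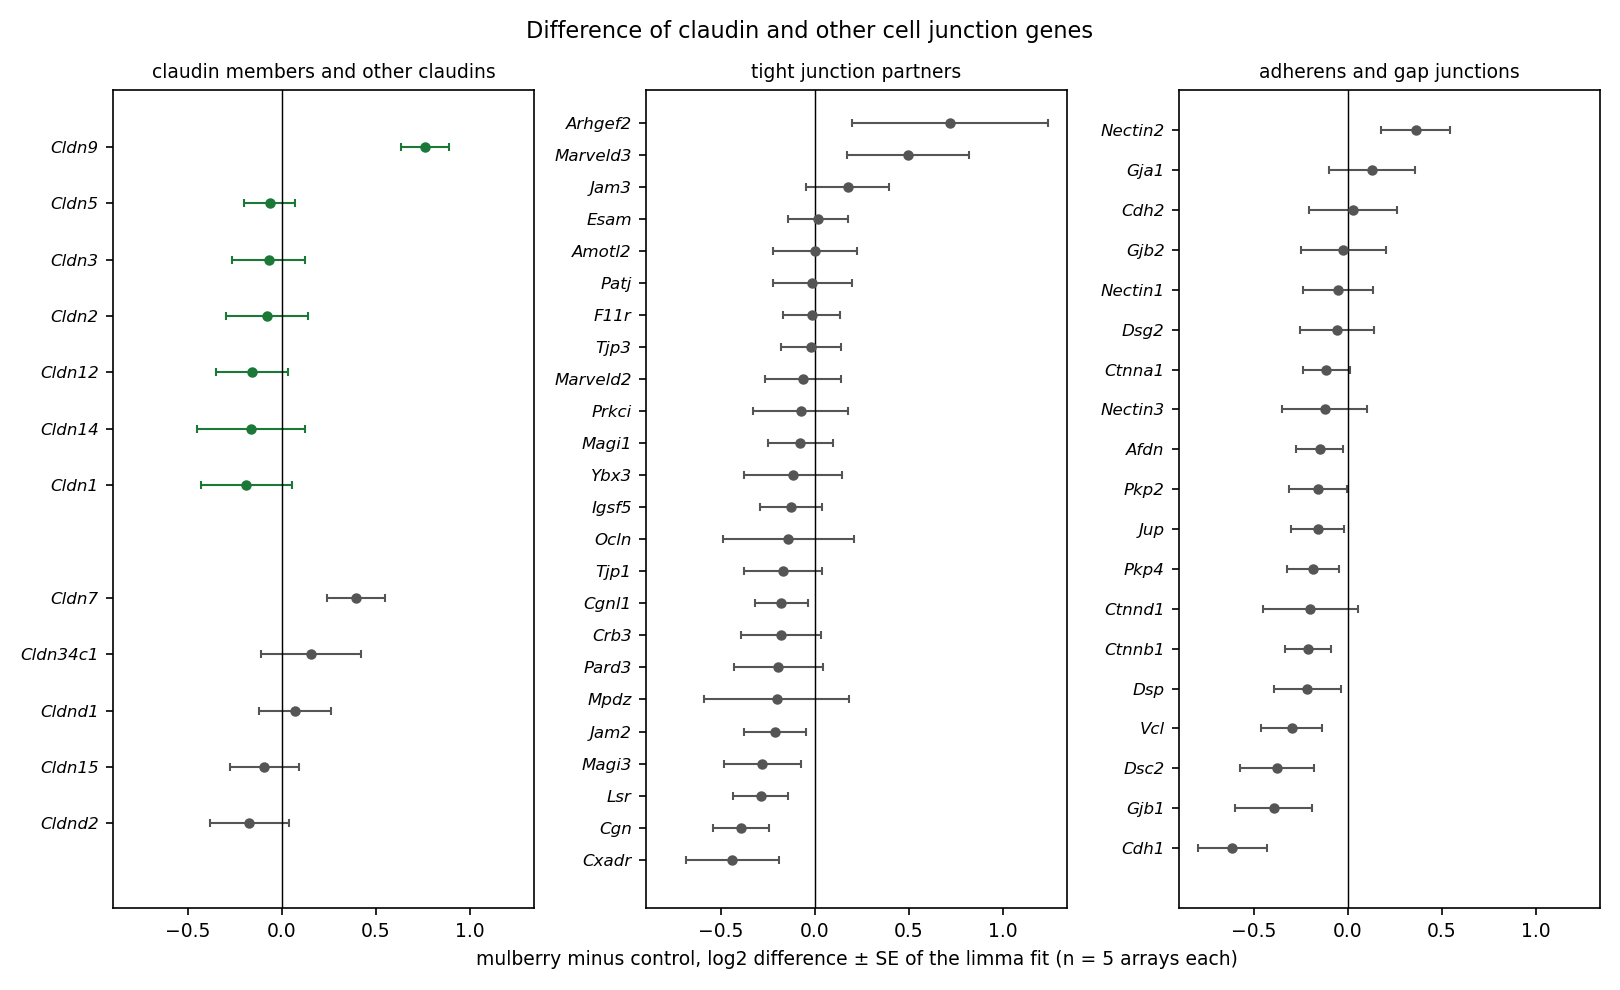
Difference between mulberry and control (horizontal axis, log2, mulberry minus control, ± SE of the limma fit, n = 5 arrays each) for the 7 claudin members (green) and the tested genes of 3 other junction lists, all but 1 (grey). Cldn9, picked for its difference, has the largest value of all genes shown at 0.76, followed by Arhgef2 at 0.72 ± 0.52. The other 6 members lie between -0.19 and -0.07.

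**Figure D5:**
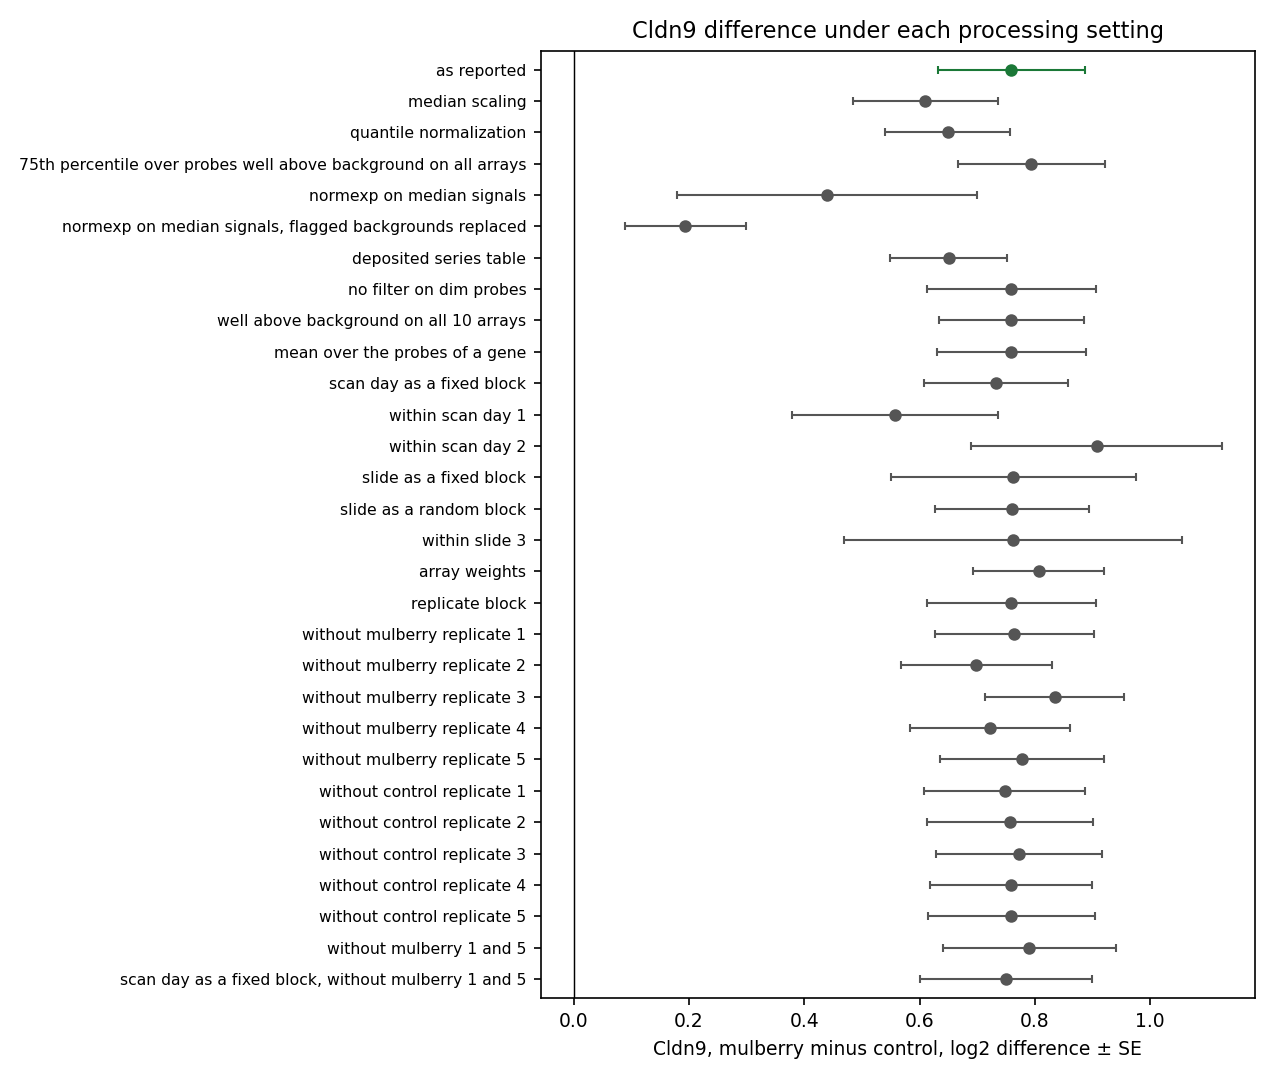
Difference in Cldn9 between mulberry and control (horizontal axis, log2, ± SE) as reported (green, 0.76) and under each of 29 alternative settings (grey). All values lie above 0, the lowest at 0.19 after normexp correction and the highest at 0.91 within scan day 2. Fits of the reported levels on fewer arrays had to be positive, as the groups did not overlap there.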

How the data were processed

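Liver RNA of 10 mice was measured on 10 one-colour Agilent arrays. Per the file headers, the deposited scanner tables give each spot's intensity after background correction. The submitters' processing notes name Agilent Feature Extraction 10.1.1.1. The deposited series table holds a linear intensity per gene symbol, and its normalization is given in no source used here. From these, 43379 non-control spots gave 41128 probes after outlier flags and 46 probes without a value on every array were left out. Probes were named through RefSeq accessions of GRCm38.p6 (25070 matched, 61.0%), and the others kept their design names. The deposited intensity was turned into log2, the array's 75th percentile was subtracted, and the probe with the highest mean stood for its gene. Genes that 4 or more of a group's 5 arrays had well above background were fitted with limma 3.58.1 in R 4.3.3 (lmFit, eBayes, two-sided, 17847 genes). Figures used matplotlib 3.10.9 in Python 3.11.15.

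The members, gene lists, tests and alternatives were chosen with earlier results of these data known. Named were all members, the other tested claudins, the 4 largest differences in each junction list with 7 set genes, up to 3 markers of a list, and the closest 5 genes for Cldn9 and 3 for each other member. The files held no mean spot signal, so normexp used the median spot signal, chosen after seeing the data. On mulberry 4, 1 spot with a flagged local background of 101163 upset that fit (5th percentile 820, against 54.7 to 55.6 on the other arrays). Normexp was therefore repeated with flagged backgrounds replaced by the array's median background, after which the 5th percentile was 55.1 there, and this repeat, also chosen after seeing the data, is the normexp value in the report. By the scanner numbers, 1 of 5 mulberry arrays matched the control of its own number best. Pairing by the numbers of the series table was not tested. No column was left unused (0 columns). The values of 1 of the set genes are not reported here. The number of arrays limits the precision, and only slide 3 held both groups.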

Additional observations from a re-analysis of the deposited data

Results flagged for a closer look

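None of the 16 member and probe sets of 5 arrays had an array far from the rest. Among all 138 sets of 5 arrays examined, 5 had such an array, where chance gives about 1 in 20 (6.9). The gap junction gene Gjb1 was at 1.38 in mulberry 1, below the other mulberry arrays at 1.96 to 2.19. The elastase gene Cela1 was at -5.05 in mulberry 3, where the others were at -4.18 to -3.94, and Cela2a was at -6.17 in mulberry 5, where the others were at -4.65 to -4.35. Both elastase spots were dim. Of the 5 mulberry arrays, 4 measured Cela1 and 2 measured Cela2a well above background, against 1 and 5 of the 5 control arrays. NAP115124-1, the gene closest in pattern to Cldn5, was at 4.50 in control 2, above 4.05 to 4.13 in the other controls. AK089197, among those closest to Cldn14, was at -2.35 in control 1, above -3.06 to -2.88.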

How the results depend on the processing

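The Cldn9 difference kept its sign under all 29 alternatives. For fits of the reported levels on fewer arrays this was fixed in advance, as the groups did not overlap there. The Cldn9 value left the spread between replicates under 3 of the 29 alternatives. It was 0.19 with normexp (flagged backgrounds replaced), 0.44 with normexp as first fitted, where 1 spot on mulberry 4 distorted the array, and 0.56 within scan day 1. Leaving out 1 array at a time gave 0.70 to 0.83. The replicate block gave 0.76 ± 0.15 for Cldn9 and 0 calls over all genes (942 with an unadjusted p under 0.05). By the scanner numbers, same-numbered arrays correlated with r of -0.44 to 0.41, and 1 of 5 mulberry arrays matched its own number best. The replicate block used these numbers and changed no call. As the control numbers differ between scanner arrays and series table, this cannot show whether the replicate numbers pair the mice. Pairing by the numbers of the series table was not tested. The median of the members was -0.08 and moved to -0.54 with the slide as a fixed block and to -0.54 within slide 3, both of which rest on mulberry 1 against control 1 and 4. In both settings the median of all genes also moved, from -0.02 to -0.25, with 5784 of 17847 genes higher. With 1 array left out, the median of the members was -0.18 to 0.004. Of 29 alternatives, the sign changed in 4 for Cldn1, 6 for Cldn2, 8 for Cldn3, 3 for Cldn5, 3 for Cldn12 and 4 for Cldn14, and in 180 of 1751 values for the other named genes.

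Over all genes, 1 passed with array weights (Rnf208), 1 without mulberry 1 and 5 (ENSMUST00000073543) and 2 with scan day as a block without them (with Defb22). With 1 array left out, 0 to 1 passed, the 1 being Rnf208 without mulberry 1. No other alternative gave a call, and the other claudins, tight junction partners and other junction genes had 0 in all 29. Median scaling moved the median of all genes to -0.17. The cause of these changes was not tested. The pair Cldn1 and Cldn12 passed in 8 of 20 alternatives (r of 0.55 to 0.90) and Cldn3 and Cldn12 in 3 of 20 (r of 0.10 to 0.97), and leaving arrays out also leaves fewer permutations. Dim probes such as Cldn9, with corrected intensities of the order of the local background in control, limit what the arrays resolve.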
